A study of Mus musculus with 9 samples.

Results

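Ly6a, Ly6c1, Ly6c2, Ly6e and Ly6i, 5 genes of the Ly6 family of surface proteins, were followed by their symbols through RNA sequencing of sorted mouse lung macrophages. The deposited tables list 24346 gene symbols, and all 5 genes are among them and among the 10686 genes that reached 1 FPKM, a read number scaled to transcript length and to the library total, in at least 3 of the 9 libraries. Ly6i was under 1 FPKM in 2 of the 3 Ctrl-AM libraries and met that filter through the others, where it was higher. The cells came from C57BL/6 mice at 10 weeks of age, and there were 3 libraries in each of 3 groups. Ctrl-AM are alveolar macrophages (AMs) from lungs that received vehicle. Tumor-AM are AMs from lungs injected with Lewis lung carcinoma (LLC) cells, an established mouse lung cancer line of the same strain that carried the fluorescent protein tdTomato. Tumor-macrophage are the tumor-associated macrophages (TAMs) of the LLC condition. By the study's methods, the sort took CD45-positive autofluorescent cells, of which AMs were Siglec-F-positive and TAMs were Siglec-F-negative, F4/80-positive and CD11b-positive. The LLC cells were placed directly into the left lung, control and tumor-bearing mice were bred separately, and the lungs were not perfused. The mice behind same-numbered Tumor-AM and Tumor-macrophage libraries are not identified in the labels.

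Ly6 proteins are small cysteine-rich proteins of a 3-fingered fold that most members hold on the outer cell surface by a glycosylphosphatidylinositol (GPI) lipid anchor. Ly6a is also known as Sca-1, the antigen used to sort mouse hematopoietic stem cells, and it is also found on activated leukocytes and endothelium. Antibodies to Ly6C detect the products of Ly6c1 and Ly6c2 and divide mouse blood monocytes into Ly6C-high inflammatory cells and Ly6C-low patrolling cells. Ly6c1 transcripts are also known from endothelial cells. Ly6e is broadly expressed, and both Ly6a and Ly6e are known to be induced by interferons. Ly6i is a close relative of Ly6a and is expressed by cells of the myeloid lineage.

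The 5 genes lie within 156.9 kb of mouse chromosome 15 in the GRCm38 (mm10) build. Ly6e is on the forward strand at chr15:74955051-74959905. The other 4 are on the reverse strand, Ly6i at chr15:74979534-74983430, Ly6a at chr15:74994877-74998031, Ly6c1 at chr15:75044018-75048830 and Ly6c2 at chr15:75108158-75111970. No other annotated gene overlapped any of the 5. The reference transcripts of Ly6a and Ly6i have 3 exons, and those of Ly6c1, Ly6c2 and Ly6e have 4.

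How far the copies can be told apart by a 75-base read decides how their values can be read, so their sequences are shown first. The coding sequences of Ly6c1 and Ly6c2 have 396 bases each and differ at 9 of them, an identity of 97.7%. Of these differences, 6 fall in the first 75 bases, printed here from the start codon with the differing bases in capitals.
Ly6c1: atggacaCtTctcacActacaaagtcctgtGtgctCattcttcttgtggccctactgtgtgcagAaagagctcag
Ly6c2: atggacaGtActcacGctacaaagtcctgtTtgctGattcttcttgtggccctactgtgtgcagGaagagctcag
The longest run without a difference between the 2 coding sequences has 188 bases. Coding bases 66 to 140 of both read as follows, and a read from this stretch cannot be given to either gene by its sequence.
Ly6c1 and Ly6c2: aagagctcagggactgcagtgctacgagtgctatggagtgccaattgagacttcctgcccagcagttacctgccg

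Ly6a and Ly6i are less alike. Their coding sequences have 405 bases each and differ at 55, an identity of 86.4%. Coding bases 211 to 285 hold 28 of the differences, again in capitals.
Ly6a: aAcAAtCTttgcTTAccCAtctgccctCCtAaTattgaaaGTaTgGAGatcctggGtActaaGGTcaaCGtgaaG
Ly6i: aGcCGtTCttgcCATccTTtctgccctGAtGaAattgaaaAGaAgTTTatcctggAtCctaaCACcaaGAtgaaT
Ly6e was the most distant of the 5, with 44.7% to 47.6% identity to the other 4.

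Over whole transcripts, 164 of the 770 windows of 75 bases in Ly6c1 (21.3%) were identical to a stretch of Ly6c2, and 164 of 748 windows of Ly6c2 (21.9%) to a stretch of Ly6c1. Allowing up to 2 mismatches raised these shares to 85.7% and 87.8%. Ly6c1 shared a further 15 windows exactly with Ly6a. Between Ly6a and Ly6i only 6 windows were identical, 0.805% of those of Ly6a and 0.555% of those of Ly6i, and 7.65% and 7.58% came within 2 mismatches. None of the 2207 windows of Ly6e matched another gene. How reads that match more than 1 place were assigned is not given in the sources used here. The values of Ly6c1 and Ly6c2 are therefore uncertain as to which copy they belong to, those of Ly6a and Ly6i less so, and for Ly6e no such window was found.

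The libraries held an estimated 11060000 to 13900000 counted reads each, from the step between low FPKM values. Siglecf, which encodes the protein gated on, was at 164 to 209 FPKM in the 6 AM libraries and at 0.456 to 0.835 in the 3 Tumor-macrophage libraries, and Itgam (CD11b) was at 1.10 to 4.52 and at 134 to 156. Adgre1 (F4/80) was present in all 9, at 115 to 442 FPKM. Single libraries stood apart in markers of other cell types. The airway secretory gene Scgb1a1 was highest for Ctrl-AM 1, at 169 FPKM, followed by Tumor-AM 1 at 53.2, while the other 7 libraries held at most 11.7. The summed FPKM of 8 fibroblast markers was 86.3 in Tumor-AM 3, against 19.7 and 13.1 in Tumor-AM 1 and 2, 3.84 to 7.03 for Ctrl-AM and 10.1 to 17.3 for Tumor-macrophage. Ly6 results that changed their call or moved by over 1.5 times without Tumor-AM 3 are given both ways, and no Ly6 call changed without Ctrl-AM 1. In sorted bulk samples, more cells of a type and more RNA per cell cannot be told apart.

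Across the 3 groups, 4 of the 5 genes had one order of mean FPKM, lowest in Ctrl-AM, intermediate in Tumor-AM and highest in Tumor-macrophage. Ly6c1 was the exception, with its lowest mean in Tumor-macrophage. The share of all genes with that order of means was not counted. Between Tumor-macrophage and Tumor-AM, Ly6a, Ly6c2, Ly6e and Ly6i rose, 4 of 5 genes at an adjusted p under 0.05 by limma, where 24.2% of all genes tested were called higher and 24.4% lower, 48.6% in all. Set against Ctrl-AM, the same 4 were higher in the TAM libraries, where 27.7% of all genes were called higher and 27.1% lower, 54.8% in all. Between the AM groups the changes were smaller. Ly6c2, Ly6e and Ly6i rose in Tumor-AM, 3 of 5 genes, where 7.11% of all genes were called higher and 3.18% lower, 10.3% in all. With the similar copies summed, 1 of the 3 remaining values, that of Ly6e, was called between the AM groups. The 3 comparisons share libraries and are not independent. The study names Ly6c2 among genes marking TAMs in these samples, so its direction there is not independent evidence.

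**Figure D1:**
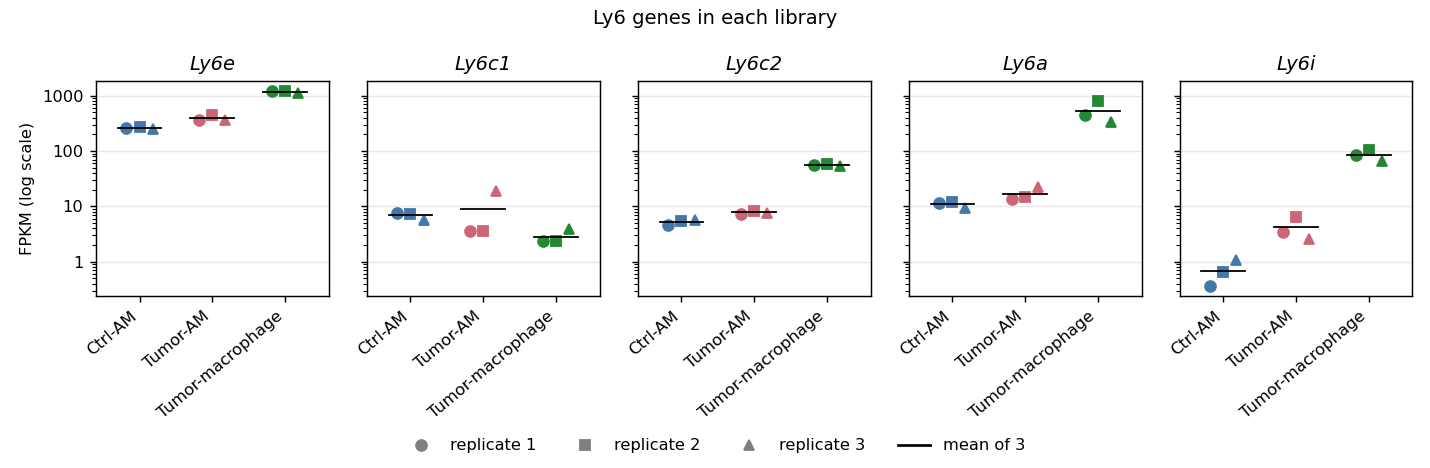
FPKM of the 5 Ly6 genes in each of the 9 libraries on a log axis, by group, with replicate numbers as symbols and a black line at each mean of 3. Ly6a, Ly6c2, Ly6e and Ly6i are highest in the 3 Tumor-macrophage libraries, Ly6c1 has its lowest mean there, and its highest value, 19.3 FPKM, is that of Tumor-AM 3.

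Ly6e, the interferon-inducible and broadly expressed member, had the highest level of the 5 in every group, and FPKM allows this comparison because it is a level per length. Ctrl-AM 1 to 3 read 259, 270 and 247 FPKM of Ly6e, Tumor-AM 1 to 3 read 360, 450.1 and 370, and Tumor-macrophage 1 to 3 read 1235, 1212 and 1110. The 3 groups did not overlap, beside shares of all genes of 18.9% for Tumor-AM over Ctrl-AM and 27.6% for Tumor-macrophage over Tumor-AM. Means were 258 ± 11.5, 393 ± 49.5 and 1186 ± 66.4 FPKM (SD, n = 3 each). By mean FPKM, Ly6e ranked 384 of the 24346 genes in Ctrl-AM, and 247 and 63 in the other two groups in that order. On the log2(FPKM + 1) scale it rose by 0.60 ± 0.092 (SE) from Ctrl-AM to Tumor-AM, a 1.52-fold difference of means (limma adjusted p = 0.00313). It rose again from Tumor-AM to Tumor-macrophage, by 1.60 ± 0.092, or 3.02-fold (limma adjusted p = 1.68e-07). All neighbouring groups in the order therefore differed beyond their spread.

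Ly6i was the lowest member in Ctrl-AM and the one with the largest fold difference from it in both other groups. It read 0.365, 0.639 and 1.06 FPKM in Ctrl-AM, which the depth puts at about 4, 8 and 14 reads. The Tumor-AM libraries held 3.48, 6.55 and 2.61 FPKM, about 38, 78 and 34 reads, and the Tumor-macrophage libraries 84.3, 106 and 65.3 FPKM, about 892, 1150 and 773 reads. No group overlapped another, beside shares of all genes of 18.9% for Tumor-AM over Ctrl-AM and 27.6% for Tumor-macrophage over Tumor-AM. The means were 0.690 ± 0.353, 4.21 ± 2.07 and 85.1 ± 20.2 FPKM (SD, n = 3 each). From Ctrl-AM to Tumor-AM the change was 1.58 ± 0.27 on the log2(FPKM + 1) scale (SE, limma adjusted p = 0.00534), which understates the 6.11-fold difference of means because the values are near the added 1. The next step, from Tumor-AM to Tumor-macrophage, was 4.09 ± 0.27, a 20.2-fold difference of means (limma adjusted p = 4.91e-07), and Tumor-macrophage was 123-fold above Ctrl-AM. The Ctrl-AM level rests on few reads, so the folds against it are imprecise.

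Ly6a, the Sca-1 gene, was a gene of low level in AMs and of high level in Tumor-macrophage. The Ctrl-AM libraries read 11.6, 12.2 and 9.54 FPKM, and the Tumor-AM libraries 13.7, 14.5 and 22.2. The Tumor-macrophage libraries read 444, 812 and 342 FPKM, the widest spread of the 4 genes that rose. Ranks by mean FPKM were 4882, 3893 and 185 of 24346 in the 3 groups. Tumor-macrophage exceeded Tumor-AM 31.7-fold, which on the log2(FPKM + 1) scale was 4.84 ± 0.28 (SE, limma adjusted p = 1.68e-07), and exceeded Ctrl-AM 47.9-fold.

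Between the AM groups, the Ly6a libraries did not overlap, a pattern with Tumor-AM higher that 18.9% of all genes tested showed, but the change of 0.53 ± 0.28 was not past the threshold (SE, 95% interval −0.085 to 1.15, limma adjusted p = 0.275). The highest value was that of Tumor-AM 3, and without it the change was 0.33 (limma adjusted p = 0.576). Means were 11.1 ± 1.38 and 16.8 ± 4.66 FPKM (SD, n = 3 each).

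Ly6c2, one of the genes behind the Ly6C antigen of inflammatory monocytes, varied little within groups. The Ctrl-AM libraries read 4.67, 5.41 and 5.66 FPKM, the Tumor-AM libraries 7.44, 8.20 and 7.75, and the Tumor-macrophage libraries 55.0, 59.2 and 53.1. All 3 groups were apart, beside shares of all genes of 18.9% for Tumor-AM over Ctrl-AM and 27.6% for Tumor-macrophage over Tumor-AM. The means were 5.25 ± 0.516, 7.80 ± 0.386 and 55.7 ± 3.10 FPKM (SD, n = 3 each). The rise from Ctrl-AM to Tumor-AM was 0.50 ± 0.094 on the log2(FPKM + 1) scale, or 1.49-fold (SE, limma adjusted p = 0.00867), and from Tumor-AM to Tumor-macrophage it was 2.69 ± 0.094, or 7.15-fold (limma adjusted p = 4.67e-09). The AM values rest on about 35, 47 and 49 reads in Ctrl-AM and 53, 64 and 65 in Tumor-AM. Summed with Ly6c1, the change between the AM groups was 0.32 (limma adjusted p = 0.499), so the rise there is uncertain as to the copy.

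Ly6c1, the near-identical copy, did not follow Ly6c2. The Ctrl-AM libraries read 7.54, 7.22 and 5.79 FPKM, the Tumor-AM libraries 3.64, 3.61 and 19.3, and the Tumor-macrophage libraries 2.33, 2.34 and 3.84. In Tumor-AM, 2 libraries lay below all of Ctrl-AM and 1 lay above them. The Tumor-AM mean of 8.84 ± 9.03 FPKM (SD, n = 3) therefore describes none of its libraries. Means in Ctrl-AM and Tumor-macrophage were 6.85 ± 0.933 and 2.84 ± 0.872 FPKM (SD, n = 3 each).

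No Ly6c1 change passed the threshold on the FPKM as deposited with all 9 libraries in the fit. From Ctrl-AM to Tumor-AM it was −0.046 ± 0.47 on the log2(FPKM + 1) scale (SE, 95% interval −1.09 to 1.00, limma adjusted p = 0.970), an interval that reaches about 2-fold in either direction. Without Tumor-AM 3 the same change was −0.76 (limma adjusted p = 0.0484), without Tumor-AM 1 or Tumor-AM 2 it was 0.31, and without Ctrl-AM 1 it was 0.019. Tumor-macrophage against Tumor-AM gave −1.003 ± 0.47 (limma adjusted p = 0.105), −0.29 without Tumor-AM 3 (limma adjusted p = 0.242), and −1.36 without Tumor-AM 1 (limma adjusted p = 0.0479) or Tumor-AM 2 (limma adjusted p = 0.0455).

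Set against Ctrl-AM, the Tumor-macrophage level of Ly6c1 was 0.414 times as high and the libraries did not overlap, which 31.1% of all genes showed in that direction. The change was −1.05 ± 0.47 (95% interval −2.10 to −0.00085, limma adjusted p = 0.0830) in the fit of all groups, whose estimate of the spread includes Tumor-AM 3. It was also −1.05 with only those 2 groups fitted (limma adjusted p = 0.00112) and without Tumor-AM 3 (limma adjusted p = 0.000567), and −1.31 with all 9 libraries rescaled to TPM, which makes the library totals equal (limma adjusted p = 0.0349).

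**Figure D2:**
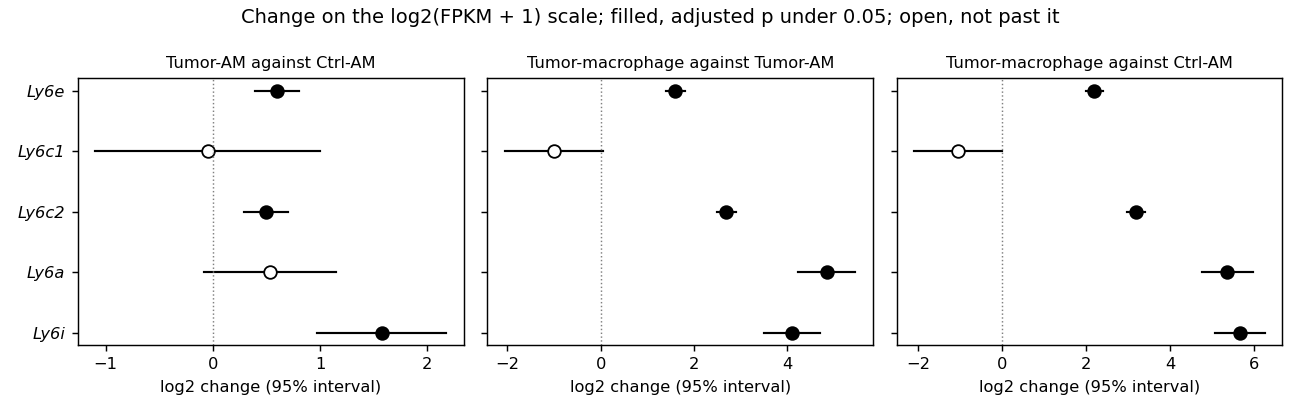
Log2 change of each Ly6 gene in the 3 comparisons on the log2(FPKM + 1) scale, with 95% intervals from limma over all 9 libraries. Filled points passed an adjusted p of 0.05 and open points did not, and Ly6c1 is open in all 3 panels.

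Tumor-AM 3, which held the outlying Ly6c1 value, also held the highest Tumor-AM level of Ly6a and the fibroblast marker RNA given above. There, Lum read 35.1 FPKM, Dcn 25.7 and Col3a1 21.0, while the highest values of these matrix genes in the other 8 libraries were 7.51, 6.87 and 4.84. Of the 8 fibroblast markers, 3 passed the filter on low values. Endothelial markers were not as uneven. Their 10-gene sum was 15.5, 8.16 and 20.6 FPKM in Tumor-AM 1 to 3, against 14.7 to 19.7 for Ctrl-AM and 7.15 to 17.7 for Tumor-macrophage. Of the 5 that passed the filter, Vwf read 4.02, 3.37 and 3.97 FPKM in Tumor-AM 1 to 3, and Pecam1 1.93, 1.23 and 1.74. Cldn5 read 2.36, 0.594 and 1.75 FPKM there. Ramp2, at 3.65, 2.16 and 8.13 FPKM, and Egfl7, at 1.94, 0.608 and 2.59, were highest in Tumor-AM 3. The endothelial markers under the filter were also highest in Tumor-AM 3 among the Tumor-AM libraries. The part of other cells in the Ly6c1 and Ly6a values of this library was not tested.

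**Figure D3:**
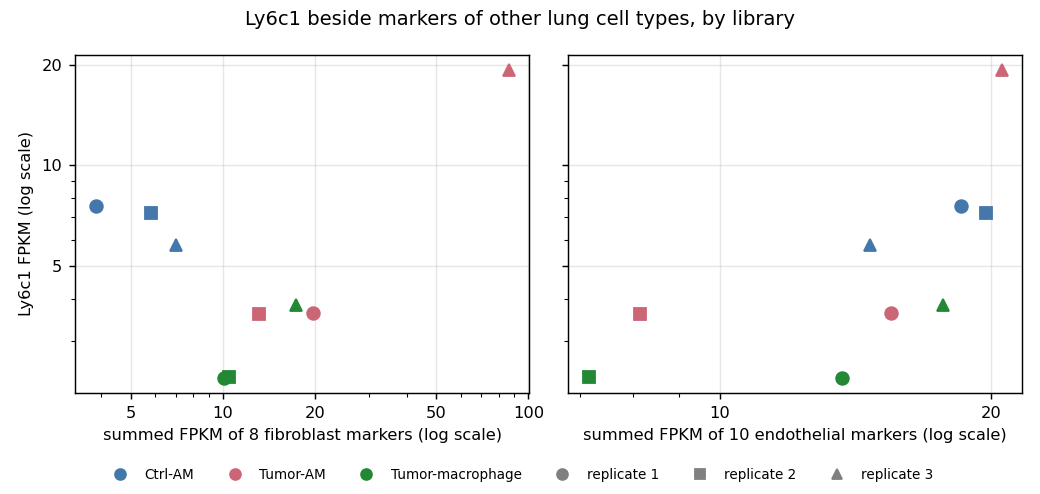
Ly6c1 in each library (FPKM, log axis) against the summed FPKM of 8 fibroblast markers (left) and 10 endothelial markers (right), both on log axes. Tumor-AM 3 lies apart from the other 8 libraries in the left panel, at a sum of 86.3 and a Ly6c1 level of 19.3 FPKM, and in the right panel its sum of 20.6 is close to the 19.7 of Ctrl-AM 2.

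The balance of Ly6c2 and Ly6c1 was taken within each library, where depth and scaling cancel in the ratio of FPKM. The tested difference in log2(FPKM + 1) still depends on scaling in part, through the added 1. Ly6c2 was 0.619, 0.750 and 0.977 times Ly6c1 in Ctrl-AM 1 to 3. For Tumor-AM 1 to 3 the ratios were 2.04, 2.27 and 0.403, and for Tumor-macrophage 1 to 3 they were 23.6, 25.3 and 13.8. Ly6c1 was thus the higher copy in all 3 Ctrl-AM libraries and in Tumor-AM 3, and Ly6c2 in the other 5. The group accounted for 90.1% of the sum of squares of the within-library difference in log2(FPKM + 1), Ly6c2 minus Ly6c1 (exact permutation test over 280 partitions of the libraries, two-sided, p = 0.0143, Benjamini-Hochberg over 2 differences 0.0286). The mean difference was 3.91 ± 0.37 for Tumor-macrophage, 0.22 ± 1.24 for Tumor-AM and −0.33 ± 0.28 for Ctrl-AM (SD, n = 3 each). For any pair of groups the smallest p that an exact permutation test of 3 against 3 allows is 0.1, which Tumor-macrophage reached against each AM group, and Tumor-AM against Ctrl-AM gave 0.4 by the same exact test.

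The balance of Ly6a and Ly6i was less settled. The Ctrl-AM libraries had 31.9, 19.0 and 8.96 times as much Ly6a as Ly6i, the Tumor-AM libraries 3.95, 2.21 and 8.48 times, and the Tumor-macrophage libraries 5.26, 7.69 and 5.25 times. Ly6a was the higher gene in all 9 libraries, and the groups overlapped between Tumor-AM and Tumor-macrophage. The group accounted for 46.9% of the sum of squares of the difference, which did not pass (exact permutation test, two-sided, p = 0.143, adjusted over the 2 differences 0.143). It was 76.9% without Tumor-AM 3 (exact permutation test, unadjusted p = 0.0143) and 62.7% with 0.1 in place of 1 added before the log (exact permutation test, unadjusted p = 0.0393).

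**Figure D4:**
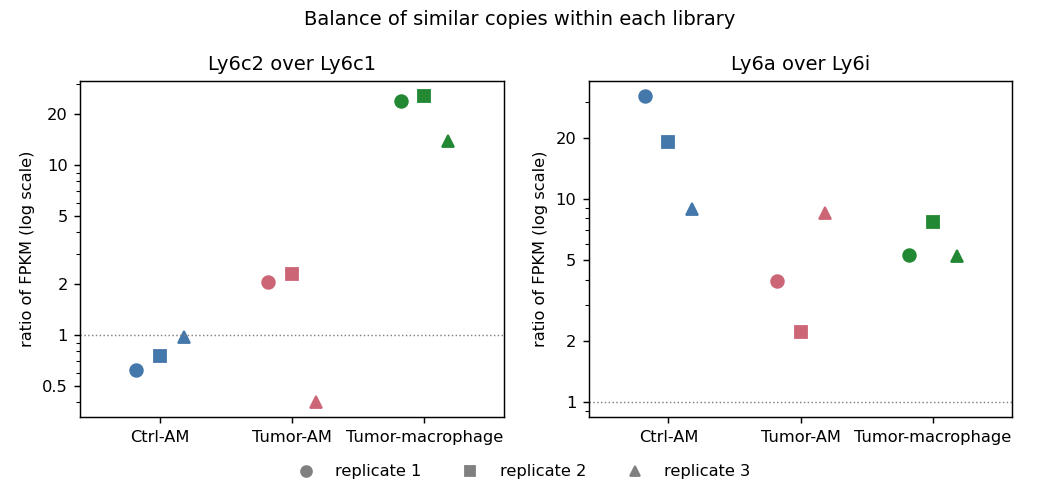
Ratio of the FPKM of Ly6c2 to Ly6c1 (left) and of Ly6a to Ly6i (right) in each library, on log axes with a dotted line at a ratio of 1. The 3 Tumor-macrophage libraries sit at 13.8 to 25.3 in the left panel, above every AM library, while in the right panel the Tumor-macrophage range of 5.25 to 7.69 lies inside that of Tumor-AM.

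Since reads of Ly6c1 and Ly6c2 can be exchanged, the pair was also summed. The sum rose by 1.87 from Tumor-AM to Tumor-macrophage on the log2(FPKM + 1) scale (limma adjusted p = 0.000132) and was 2.19 above Ctrl-AM (limma adjusted p = 3.47e-05). With transcripts of 844 and 822 bases, these values depend little on which of the 2 copies a read was given to. Exchange with Ly6a, to which 10.65% of the Ly6c1 windows came within 2 mismatches, is not covered by the sum. Ctrl-AM 1 to 3 summed to 12.2, 12.6 and 11.4 FPKM, and Tumor-AM 1 to 3 to 11.1, 11.8 and 27.0, so that only Tumor-AM 3 lay above the Ctrl-AM libraries. Between these groups the summed change was 0.32 (limma adjusted p = 0.499), and −0.074 without Tumor-AM 3 (limma adjusted p = 0.707), an alternative added after seeing the data. The sum of Ly6a and Ly6i rose by 4.74 from Tumor-AM to Tumor-macrophage (limma adjusted p = 8.18e-08). It changed by 0.77 between the AM groups (limma adjusted p = 0.0771) and by 0.65 without Tumor-AM 3 (limma adjusted p = 0.213), where Ly6a supplies most of the sum and the rise of Ly6i alone was past the threshold.

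Interferon signalling reaches its target genes through cell-surface receptors, the kinases Jak1, Jak2 and Tyk2, and transcription factors such as Irf7. Of 14 such genes, 7 rose and none fell from Ctrl-AM to Tumor-AM, with a median log2 change of 0.40 beside 0.014 for all genes tested. Between Tumor-AM and Tumor-macrophage 11 rose and none fell, with a median of 0.95 beside 0.0012, and against Ctrl-AM 12 were higher and 1, Tyk2, was lower. Irf7, which amplifies the type I response, rose by 1.36 from Ctrl-AM to Tumor-AM (limma adjusted p = 0.0121) and by 2.75 from Tumor-AM to Tumor-macrophage (limma adjusted p = 1.18e-05). Ifngr1, the ligand-binding receptor chain for interferon gamma, changed by 0.0060 between the AM groups (limma adjusted p = 0.985).

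Among 22 interferon-stimulated genes that are not of the Ly6 family, 11 rose and none fell from Ctrl-AM to Tumor-AM, with a median log2 change of 0.73. From Tumor-AM to Tumor-macrophage 22 of 22 rose, with a median of 2.05, and all were also above Ctrl-AM, with a median of 2.93. Mx1 and Ifi44 met the filter on low values only through Tumor-macrophage, where they were high, and without them 20 of 20 rose in both comparisons, with medians of 2.05 and 3.00. Oasl2, of the oligoadenylate synthetase family, rose by 2.05 and 2.33 in the first 2 of these comparisons (limma adjusted p = 0.00151 and 3.74e-05). Ifi27l2a had the largest rise of the 22 between the AM groups, 2.11 (limma adjusted p = 0.000518). Cxcl10, a chemokine for activated T cells, changed by 0.72 between the AM groups (limma adjusted p = 0.204) and rose by 4.37 from Tumor-AM to Tumor-macrophage (limma adjusted p = 1.17e-06). All 22 fitted changes were above 0 in each of the 3 comparisons, as were those of Ly6a, Ly6c2, Ly6e and Ly6i, and the comparisons share their libraries. Those of Ly6c1 were below 0, and that of Ly6a between the AM groups was not past the threshold. The part of interferon signalling in the Ly6 changes was not tested.

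**Figure D5:**
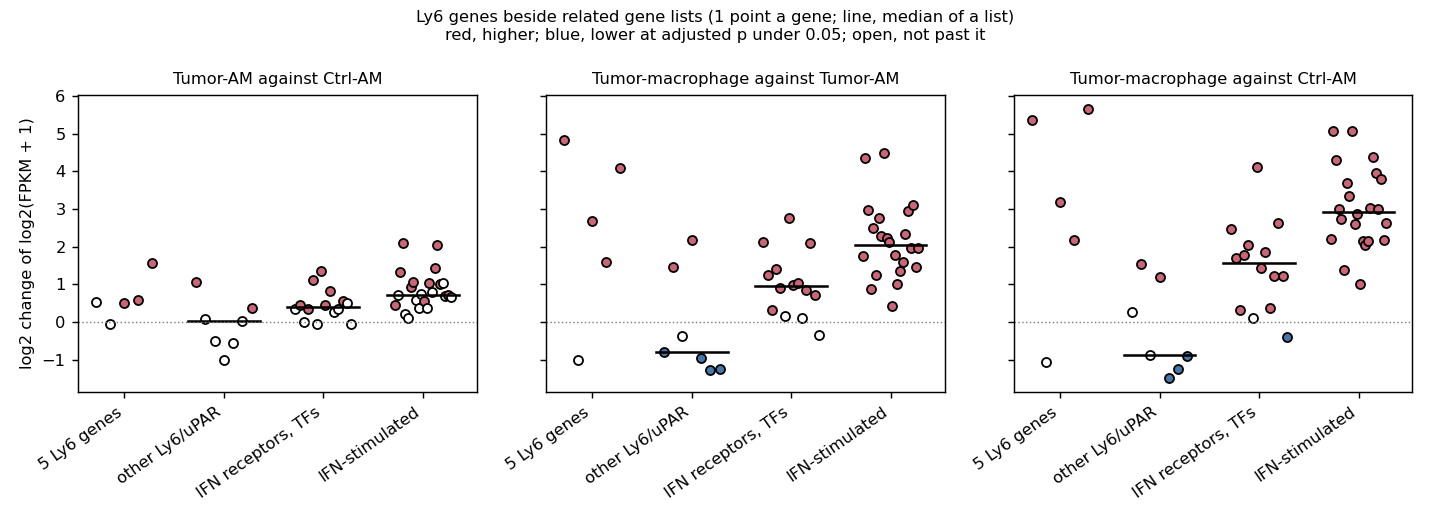
Log2 change of the 5 Ly6 genes, 7 other genes of the Ly6/uPAR superfamily, 14 interferon receptor and transcription factor genes and 22 interferon-stimulated genes in the 3 comparisons, 1 point a gene. Red and blue points were higher or lower at an adjusted p under 0.05 by limma, open points did not pass, black lines mark list medians, and all 22 interferon-stimulated genes, 2 of which met the filter only through Tumor-macrophage, are red in both Tumor-macrophage panels while the other Ly6/uPAR genes lie on both sides of 0.

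Other genes of the Ly6/uPAR superfamily, which share the Ly6 fold, did not move as a block. Of 33 listed, 29 were found by their symbols, 13 of these were at 0 in all 9 libraries, and 7 passed the filter on low values. From Tumor-AM to Tumor-macrophage 2 rose and 4 fell, with a median log2 change of −0.80, and against Ctrl-AM 2 were higher and 3 lower. Without Cd177 and Cd59a, which met the filter through 1 group each, 1 of 5 rose and 3 fell in both of these comparisons. Plaur, the urokinase receptor that focuses plasminogen activation on the cell surface, was the most abundant, at 973, 1034 and 999 FPKM for Ctrl-AM, 1365, 1180 and 1335 for Tumor-AM and 553, 522 and 546 for Tumor-macrophage. It rose by 0.37 from Ctrl-AM to Tumor-AM (limma adjusted p = 0.0115) and fell by 1.26 from there to Tumor-macrophage (limma adjusted p = 1.82e-07). Its lowest group was thus the one in which Ly6e was highest.

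Cd177, a GPI-anchored protein known from neutrophils, had 0.325, 0.342 and 0.228 FPKM for Ctrl-AM, 1.76, 1.91 and 1.49 for Tumor-AM and 0.287, 0.942 and 0.511 for Tumor-macrophage. The Tumor-AM libraries were the highest, and Cd177 met the filter on low values only through them, so a difference was built into its being tested (1.06 from Ctrl-AM, limma adjusted p = 0.00306). Ly6d, a marker of lymphoid and epithelial progenitors, rose from Tumor-AM to Tumor-macrophage by 2.18 (limma adjusted p = 0.000640). Cd59a, an inhibitor of the terminal complement complex, met the filter only through Tumor-macrophage, at 1.37 to 4.16 FPKM against 0.0927 to 0.730 in the AM libraries. Ly6g5b and Lypd6b fell by 0.94 and 1.27 (limma adjusted p = 0.0294 and 0.00235). Gpihbp1, which carries lipoprotein lipase across the endothelium of capillaries, did not pass in any comparison. Ly6g, the neutrophil antigen next in name to Ly6c, was not analysed here because its symbol was not among those listed.

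Markers of TAMs, and some of those of monocytes, rose in the comparisons in which Ly6a, Ly6c2, Ly6e or Ly6i rose. All 10 TAM markers rose from Tumor-AM to Tumor-macrophage, and 8 of 10 rose from Ctrl-AM to Tumor-AM, among them Itgam, Ccr2, Apoe and the C1q genes. The study named Ccr2, Cx3cr1 and Tgfb3 as TAM genes on these samples, so they are not independent evidence. Itgam encodes CD11b, by which TAMs were defined, so its rise toward Tumor-macrophage is not independent either. Cx3cr1 and Tgfb3 also met the filter only through Tumor-macrophage, and without these 2 the counts were 8 of 8 in both comparisons. The summed level of the 10 ran from 119 to 220 FPKM for Ctrl-AM, from 403 to 746 for Tumor-AM and from 35270 to 48295 for Tumor-macrophage. Of 9 monocyte markers, 8 were tested, 4 rose between the AM groups, and from Tumor-AM to Tumor-macrophage 4 rose and 2 fell, with Cd177 among those that rose and then fell. Without Cd177, which met the filter only through Tumor-AM, 3 of 7 rose between the AM groups, with a median log2 change of 0.11. From Tumor-AM to Tumor-macrophage 4 of these 7 rose and 1 fell. F13a1, a coagulation factor chain of monocytes and macrophages, rose by 2.89 between the AM groups (limma adjusted p = 0.000284). Ccr2 is on both lists, and Chil3, which supplies most of the monocyte sum, is also an AM marker.

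Set against the Tumor-macrophage level, the rise from Ctrl-AM to Tumor-AM differed in size between these genes, a comparison chosen after the values were seen. The difference of group means was 11.4% of the Tumor-macrophage mean for Ly6e, 4.58% for Ly6c2, 4.14% for Ly6i and 1.07% for Ly6a. For the 10 TAM markers it ran from 0.233% for Cx3cr1 to 6.78% for Ccr2, with a median of 0.908%. The part of TAMs or monocytes within the Tumor-AM libraries in these rises was not tested.

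AM markers fell together toward Tumor-macrophage, 10 of 10 in both comparisons, while between the AM groups 1 of 10, Pparg, fell. Siglecf encodes the protein gated on, and the study named it with Pparg, Mrc1 and Siglec1 among genes high in AMs of these samples. Their fall toward Tumor-macrophage is therefore not independent evidence. Lymphocyte markers also differed between the sorts. From Tumor-AM to Tumor-macrophage 5 of 6 tested markers of B and plasma cells rose, with sums of 3.42 to 10.3 FPKM in Tumor-AM and 32.9 to 88.3 in Tumor-macrophage, and 5 of 7 T cell markers rose, although Cd4 and Il7r are also made by macrophages and Cd4 met the filter only through Tumor-macrophage. Cd2 fell by 4.57 (limma adjusted p = 1.93e-07) and supplied most of the T cell sum of AMs, 409 to 522 FPKM. Ly6a, at 342 to 812 FPKM in Tumor-macrophage, is known from lymphocytes too. Their part in the Ly6a values was not tested.

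The genes with the most similar pattern were ranked by Pearson correlation of log2(FPKM + 1) over the 9 libraries, as a description, since the 3 groups alone produce high values. For Ly6a the nearest was Ifitm3 (r = 0.998), an interferon-induced membrane protein that blocks viral entry, followed by Tgtp2 and Capn5. For Ly6e it was Tap1 (r = 0.998), the peptide transporter of antigen presentation, followed by St6galnac4 and Cxcl9. Ly6i was nearest to AW112010 (r = 0.999), St6galnac4 and Ifi47, an interferon-inducible GTPase. Ly6c2 was nearest to Lacc1 (r = 0.999), Aif1 and Fgl2, which rose from Tumor-AM to Tumor-macrophage by 4.06, 6.99 and 5.06 on the log2 scale (limma adjusted p at most 3.12e-09).

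Ly6c1 had its nearest genes elsewhere, Calm3 (r = 0.959), Capns1 and Rwdd2a. None of the 3 passed the threshold in any comparison. The mean of Calm3 was 38.4 FPKM for both AM groups and 35.1 for Tumor-macrophage, and that of Rwdd2a was 2.37, 2.23 and 1.35 FPKM in the 3 groups. With the other 4 Ly6 genes Ly6c1 had correlations of −0.58 to −0.68, whereas those 4 had 0.965 to 0.995 among themselves.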

How the data were processed

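RNA from sorted macrophages was made into full-length cDNA (SMART-Seq HT) and sequenced in 75-base single-end mode. The deposited values are FPKM per gene symbol, which the authors made by mapping to mm10 with TopHat2 2.1.1 and Bowtie2 and quantifying with Cufflinks, by the submitters' processing notes as Cuffdiff 2.2.1. The annotation, strand setting and handling of reads with several matches are not given in the sources used here. FPKM keep gene length out of levels but depend on the total in each library.

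From these values, genes with at least 1 FPKM in at least 3 of 9 libraries were fitted as log2(FPKM + 1) with limma 3.58.1 (R 4.3.3), all groups in 1 fit with a prior variance that follows mean level, two-sided, Benjamini-Hochberg adjusted over 10686 genes at 0.05. The fitting code was tested on simulated data. The balance of copies was tested by exact permutation of libraries. Replicates are 3 samples a group; the p-values measure the spread between them. Depth was estimated from the steps of low FPKM values of long single-transcript genes: 67.7% to 77.1% of these came within 2% of a whole number, and no more than 4.02% did so once the grid was moved. Read numbers of single genes are therefore approximate. Sequence windows and coding sequences were read from GENCODE transcripts of GRCm38, 1 transcript a gene.

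The 5 genes and the gene lists were chosen with earlier results of these data known. Named besides them are listed genes past the threshold or needed to check a population, at most 8 a list, and the 3 genes nearest in pattern to each. One listed gene is not reported here by name. Alternatives covered the added constant, the filter, 3 rescalings, the prior, the groups fitted, a replicate block, leaving out each library and summing the copies. Summing the copies without Tumor-AM 3 was added after seeing the data. Numbers in the titles were not taken as pairs, and there were no columns without a sample.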

Additional observations from a re-analysis of the deposited data

How the results depend on the processing

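Ly6e kept its direction and its side of the threshold in all 3 comparisons under each of 18 alternatives, and so did Ly6a under 20. Ly6c2 and Ly6i did so except between the AM groups with the copies summed, where the changes were 0.32 and 0.77, or −0.074 and 0.65 when Tumor-AM 3 was also left out, and not past the threshold. The change of Ly6i from Ctrl-AM to Tumor-AM was 2.45 with 0.1 added before the log, over 1.5 times the 1.58 given. Ly6c1 was the unstable member. Leaving out 1 library in turn gave it −0.76 to 0.31 between the AM groups, −1.36 to −0.29 for Tumor-macrophage against Tumor-AM and −1.23 to −0.96 for Tumor-macrophage against Ctrl-AM. It lost its negative sign between the AM groups without Ctrl-AM 1, Tumor-AM 1 or Tumor-AM 2. Summed with Ly6c2 it gave 0.32, 1.87 and 2.19 in the 3 comparisons, and −0.074, 2.26 and 2.19 when Tumor-AM 3 was also left out, which was chosen after seeing the data. Against Ctrl-AM it passed the threshold after rescaling to TPM (−1.31, limma adjusted p = 0.0349) and with 2 groups fitted (−1.05). With TPM the median change of all genes was −0.11, −0.081 and −0.22 in the 3 comparisons, beside 0.014, 0.0012 and −0.0082 on the FPKM as deposited. The cause of these differences was not tested, other than that leaving out Tumor-AM 3 removes its outlying value.

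The count of genes called between the AM groups, 1100, ranged from 538 to 1254 when 1 library was left out. It was 538, 690 and 549 without Ctrl-AM 1, 2 and 3, 733 without Tumor-AM 1 and 674 without Tumor-AM 3. The counts of Ly6 genes called were 3 to 4, 4 to 5 and 4 to 5 over the 18 alternatives that kept the 5 genes apart. With the copies summed, 1, 3 and 3 of the 3 remaining values were called. The share of the Ly6a minus Ly6i difference between groups was 32.7% to 76.9% when 1 library was left out and 62.7% with 0.1 added, and that of Ly6c2 minus Ly6c1 stayed within 86.9% to 98.4%. With the replicate block, the number in the titles as a term of the fit, 938 genes were called between the AM groups and no Ly6 call changed, with Ly6c1 at −0.046. Same-numbered libraries of different groups had correlated deviations of −0.062 to 0.159 (mean 0.055, 9 pairs), and other-numbered ones −0.152 to 0.095 (mean −0.027, 18 pairs). Between Tumor-AM and Tumor-macrophage, same numbers gave 0.026, 0.096 and 0.109, above the −0.101 to 0.0062 of other numbers. The labels do not identify the mice, so the numbers were not taken as pairs, and whether these libraries share mice was not tested. Depth limits Ly6i in Ctrl-AM and Ly6c1 in Tumor-macrophage most, at about 4 to 14 and 17 to 31 reads a library.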

Other observations

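Most Ly6 proteins need a GPI anchor, made in the endoplasmic reticulum by the Pig proteins and attached by a transamidase. Of 27 genes of this pathway, 25 were tested, and they did not move one way. From Ctrl-AM to Tumor-AM 2 rose and 2 fell, with a median log2 change of 0.0033. From Tumor-AM to Tumor-macrophage 4 rose and 6 fell, with a median of −0.021, and against Ctrl-AM 6 were higher and 7 lower. Piga, of the enzyme that starts the anchor, rose from Tumor-AM to Tumor-macrophage by 0.93 (limma adjusted p = 0.000905), with 0.733 to 1.67 FPKM in the first group and 2.84 to 3.597 in the second. Pigs, of the transamidase, had 89.0, 87.6 and 93.7 FPKM for Tumor-AM and 51.7, 49.4 and 46.7 for Tumor-macrophage, and fell by 0.86 (limma adjusted p = 2.42e-06). The summed FPKM of the pathway was 469 to 503 in Tumor-AM and 415 to 429 in Tumor-macrophage.

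Markers of the remaining cell types are given as counts of those tested. Of 6 neutrophil markers, 2 fell between the AM groups, and from Tumor-AM to Tumor-macrophage 1 rose and 3 fell. Of 5 dendritic cell markers, 1 fell between the AM groups and 3 rose from Tumor-AM to Tumor-macrophage, among them Xcr1, which met the filter on low values only through Tumor-macrophage. Of 7 epithelial markers, 1 and 3 fell in these comparisons. Of 2 tested NK cell markers, none passed between the AM groups and 1 rose from Tumor-AM to Tumor-macrophage. Of 3 fibroblast markers, 2 rose between the AM groups and none passed from Tumor-AM to Tumor-macrophage. Of 5 endothelial markers, none passed between the AM groups, and from Tumor-AM to Tumor-macrophage 1 rose and 1 fell. The 4 genes of macrophages in general held 1 that rose between the AM groups and 2 that rose from Tumor-AM to Tumor-macrophage.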
